A study of Mus musculus with 2 samples.

Results

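The nuclear-encoded subunits of the respiratory chain and ATP synthase were compared between liver tumors of WT and Fabp4-/- mice. Members were the protein-coding genes whose symbol begins with Nduf, Uqcr, Cox4 to Cox8 or Atp5, together with *Sdha*, *Sdhb*, *Sdhc* and *Sdhd*, and 92 of the 48526 genes in the table met this rule. By role they fall into 36 subunits of complex I, 4 of complex II, 8 of complex III, 19 of complex IV and 15 of ATP synthase (complex V). The other 10 found by name are not subunits of the mature enzymes but assembly factors and related proteins. The name rule also leaves out subunits with other names, such as *Cyc1* of complex III, and these are described apart. Male C57BL/6N mice of both genotypes carried tumors induced by N-nitrosodiethylamine (DEN), a carcinogen that is activated in hepatocytes, given at 25 mg/kg when 14 days old, and were then fed a high-fat diet from 6 weeks of age for 29 weeks. *Fabp4*, the fatty acid chaperone gene of adipocytes and macrophages, was disrupted throughout the Fabp4-/- animals and not in a chosen cell type, and littermates served as WT. PolyA RNA of liver tumor tissue was sequenced in 1 library per genotype, and the sources used here do not give how many mice or tumors each library holds. No difference below has a replicate check, therefore no p-value was computed, and each difference is one between these libraries.

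The respiratory chain sits in the inner mitochondrial membrane and passes electrons from NADH (through complex I) and succinate (through complex II) to ubiquinone, on through complex III and cytochrome c, and to oxygen at complex IV. Proton pumping by complexes I, III and IV drives ATP synthase. A few subunits of complexes I, III, IV and V are encoded in the mitochondrial genome, while the others, described here, are encoded in the nucleus and imported. In liver the chain supplies ATP for gluconeogenesis and urea synthesis and reoxidises the cofactors reduced by fatty acid oxidation.

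Levels are given in TPM, transcripts per 1000000 in a library, which corrects for transcript length and so permits comparison between genes. Differences are given as the log2 of Fabp4-/- over WT after adding 0.5, both for TPM and for the normalised counts of the authors, which are read counts scaled by 1 factor per library. The scales differ in where an average gene lies. TPM is a share of a fixed total, so a larger share for some genes lowers that of others. The 20 genes most abundant by mean TPM took 28.2% of the total in WT and 36.8% in Fabp4-/-. Over the 12890 genes with a mean of at least 1 TPM the median log2 ratio was −0.45 by TPM and 0.06 by normalised counts, and the 2-fold limit was passed upwards by 259 genes and downwards by 1712 in TPM, but by 699 and 772 in normalised counts. Estimated depth was 56353665 read pairs for WT and 59600850 for Fabp4-/-, and *Fabp4* itself had 1786 read pairs in WT and 1 in Fabp4-/-. Intervals below are exact binomial 95% intervals of counting error on the ratio of normalised counts, and they cover neither variation between tumors nor amplified copies of a molecule.

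Respiratory chain mRNAs kept nearly the same TPM in both tumor libraries, where most genes had a lower TPM in Fabp4-/-. Of the 92 members, 88 passed the minimum of 1 TPM, at a median of 145 TPM in WT (range 2.29 to 857) and 142 TPM in Fabp4-/- (range 0.98 to 873). The median log2 ratio of these 88 members was 0.05 by TPM and 0.62 by normalised counts. Relative to the median of all measured genes, the members lay 0.50 higher by TPM and 0.56 higher by normalised counts. TPM was higher in Fabp4-/- for 56 of the 88 members, as it was for 15.6% of all measured genes. By TPM, 76 members lay above the upper quartile of all measured genes, which 25% of those genes exceed, and by normalised counts 77 did. Abundant genes lay higher in general: of the 1706 genes of 50 TPM or more, 45% lay above that quartile by TPM and 47.1% by normalised counts, against 70 and 69 of the 72 members of that level. Few members were far apart between the libraries. By TPM 1 was at least 2-fold lower (13.3% of all measured genes) and 0 were at least 2-fold higher (2.01%), and by normalised counts 1 was lower (5.99%) and 1 higher (5.42%). At 1.5-fold, 2 members were lower (38%) and 0 higher (3.92%) by TPM, against 1 lower (12.9%) and 51 higher (14.2%) by normalised counts. Among the genes of 50 TPM or more, 14.8% were 1.5-fold lower by TPM and 26.8% were 1.5-fold higher by normalised counts, and of the 72 members of that level 0 and 47 were. The direction of the members in absolute terms thus rests on the scale, while their place above the median gene was found on both. The scales come from the same reads, so the second is no independent check of the first.

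**Figure D1:**
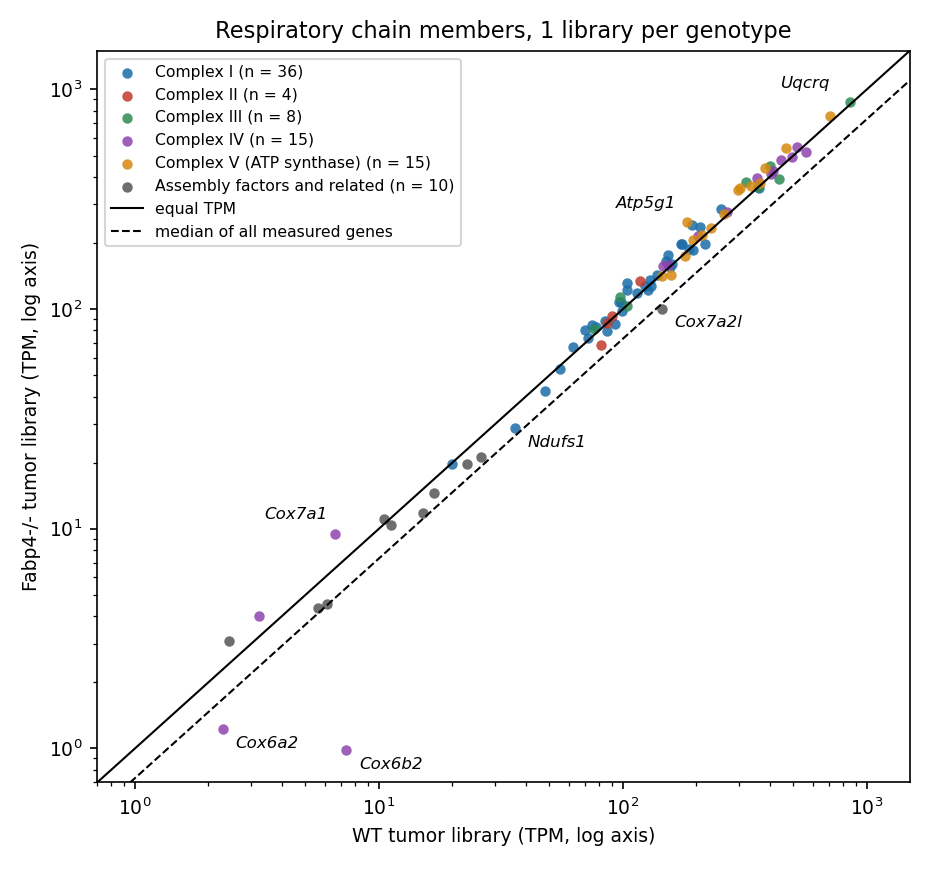
TPM of the 88 measured members in the WT library (x axis) and the Fabp4-/- library (y axis), both on log axes, coloured by complex. The solid line marks equal TPM and the dashed line the median ratio of all measured genes (log2 −0.45). Most subunits lie along the solid line, whereas Cox6b2, Cox6a2 and Cox7a2l lie below the dashed one.

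The members also kept close to each other. Among the 74 subunits of complexes I to V that are not tissue isoforms, the interquartile range of the log2 ratio was 0.17 by TPM and 0.18 by normalised counts, against 0.60 and 0.67 over all measured genes, and 0.48 and 0.50 over the 1706 genes of 50 TPM or more. Such closeness was not particular to the respiratory chain. The range was narrower for the 81 measured cytosolic ribosomal proteins, at 0.13 and 0.12, and 0.26 and 0.27 for the 77 mitochondrial ones. All 74 lay above the median of all measured genes on both scales, and 71 lay above the upper quartile on each. Across these 74 genes, the log2 TPM of WT and Fabp4-/- correlated at Pearson's r = 0.99, a description across genes of the same pair of libraries. By normalised counts, the interval lay above 0 for all 74 and its bounds were 0.03 to 0.10 from the ratio, so that differences among subunits are often larger than counting error. Summed TPM of all 92 members was 1.63% of all TPM in WT and 1.71% in Fabp4-/-.

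Other features moved with this result, and their part in it was not tested. Members have short mRNAs, with a longest coding transcript of median 945 nt against 2996 nt for all measured protein-coding genes. Over all measured protein-coding genes the median log2 ratio by TPM was −0.11 for transcripts of up to 600 nt, −0.15 from there to 1000 nt, −0.29 to 2000 nt, −0.45 to 4000 nt and −0.65 above that. For the 262 other genes of at most 1000 nt and at least 50 TPM the median was −0.17 by TPM, 0.39 by normalised counts, whereas the 41 members of that kind had 0.06 and 0.65. Within the measured members the median by TPM was 0.07, 0.06 and 0.04 in the 3 shorter groups. It was −0.18 for the 10 members from 2000 to 4000 nt, *Ndufs1* and *Sdha* among them, and 0.38 for the 2 longer ones. Hepatocyte genes also differed. Of 9 hepatocyte markers measured, 7 lay above the upper quartile of all genes, the sum of their TPM was 89184 in WT and 120290 in Fabp4-/-, and most of that sum was albumin, *Alb*, at 49157 TPM and 65262 TPM, and the apolipoprotein gene *Apoa1*, at 29747 TPM and 40741 TPM. Lower in Fabp4-/- by TPM were the cytochrome P450 gene *Cyp2e1*, at 2783 TPM and 621 TPM, and the hepatocyte transcription factor gene *Hnf4a*, at 171 TPM and 134 TPM. Summed TPM of 7 T and NK cell markers was 51.1 in WT and 5.09 in Fabp4-/-, with *Cd8a* at 7.91 TPM and 0.40 TPM. Markers of other cell types differed without a common direction. Among 8 macrophage markers (sum 227 TPM and 165 TPM) *Csf1r* was at 20.6 TPM and 11.5 TPM and *Clec4f* at 14.7 TPM and 24.7 TPM, and among 5 cholangiocyte markers (sum 480 TPM and 992 TPM) *Spp1* was at 468 TPM and 985 TPM and *Epcam* at 2.68 TPM and 0.66 TPM. The sum of 7 stellate cell and fibroblast markers was 278 TPM and 215 TPM. Of the 6 measured, 5 were lower in Fabp4-/- by TPM, such as *Pdgfrb* at 6.77 TPM and 2.53 TPM. The other 1, *Acta2*, was higher, at 20.2 TPM and 33.3 TPM. A lower TPM in Fabp4-/- was also found for 10869 of all 12890 measured genes. Normalised counts, in log2, were lower in Fabp4-/- for *Pdgfrb* (−0.86) and *Dcn* (−0.11). They were higher for *Acta2* (1.29), *Col1a1* (0.38), *Col3a1* (0.08) and *Col1a2* (0.004). The sum of 6 endothelial markers was 49.1 TPM and 51.2 TPM. In bulk tissue, fewer cells of a type and less RNA per cell cannot be told apart.

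**Figure D2:**
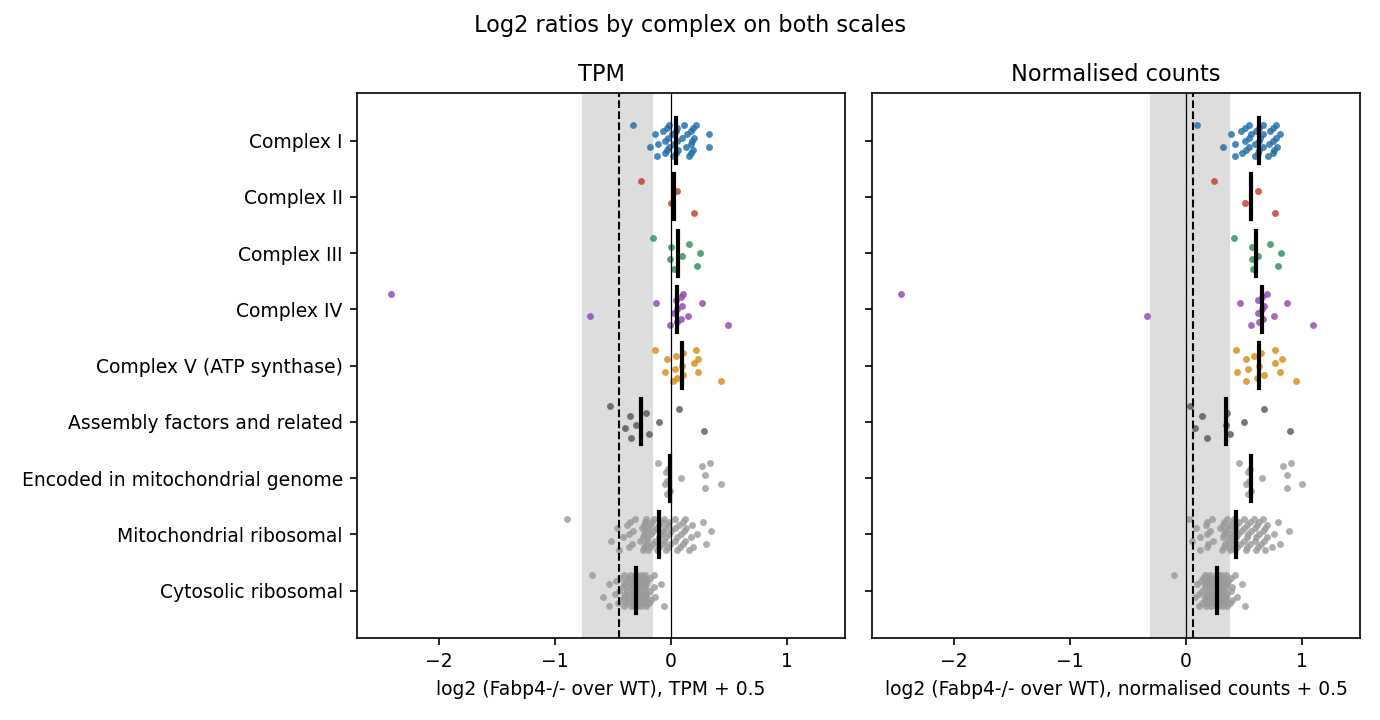
Log2 ratio of Fabp4-/- over WT for each measured gene (points) by complex, by TPM on the left and by normalised counts on the right, with medians as thick bars. The grey band spans the quartiles of all measured genes and the dashed line their median. Complexes I to V have medians from 0.03 to 0.09 by TPM and from 0.57 to 0.66 by normalised counts, and assembly factors and cytosolic ribosomal proteins lie further left.

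Complex I, the NADH dehydrogenase and largest enzyme of the chain, was represented by 36 nuclear subunits, all measured. Their median log2 ratio was 0.05 by TPM (range −0.32 to 0.33) and 0.63 by normalised counts (range 0.10 to 0.81), and 0 were 2-fold apart on either scale. Of these 36, 34 lay above the upper quartile of all measured genes by TPM, and 34 by normalised counts. The lowest of the complex was *Ndufs1* (ENSMUSG00000025968.16; mm10 chromosome 1, 63143596 to 63176833), the iron-sulfur subunit at the tip of the NADH-oxidising arm, at 36.2 TPM in WT, compared with 28.8 TPM in Fabp4-/-. Its log2 ratio was −0.32 by TPM and 0.10 by normalised counts, with an interval of 0.02 to 0.18 that overlaps that of no other subunit of the complex.

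Among the other subunits of the NADH-oxidising arm, *Ndufv1*, which binds NADH and FMN, was at 55.2 TPM and 53.3 TPM, and the iron-sulfur subunit *Ndufv2* at 99.4 TPM and 98.2 TPM. Both differed by little in TPM, and their ratios by normalised counts were 0.55 and 0.56. Of the subunits at the ubiquinone site, *Ndufs7* was at 85.9 TPM in WT against 79.1 TPM in Fabp4-/-. *Ndufs3* was at 115 TPM and 118 TPM and *Ndufs8* at 70.0 TPM and 80.2 TPM. By normalised counts the order was *Ndufs7* at 0.43 (interval 0.34 to 0.51), *Ndufs3* at 0.63 (0.58 to 0.69) and *Ndufs8* at 0.76 (0.69 to 0.84). The intervals of *Ndufs3* and *Ndufs8* overlap narrowly and that of *Ndufs7* lies apart, so subunits of a single module differed by more than counting error. For the 7 catalytic core subunits the median was −0.04 by TPM, 0.55 by normalised counts, and for the 29 accessory subunits 0.07 and 0.63, a difference that was not tested.

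Accessory subunits surround the core and are needed for its assembly and stability. The highest log2 ratios by TPM were those of *Ndufb2*, at 104 TPM in WT, compared with 131 TPM in Fabp4-/-, *Ndufv3*, at 192 TPM and 241 TPM, and *Ndufa5*, at 104 TPM and 122 TPM. By normalised counts *Ndufa5* had the highest ratio of the complex, at 0.81 (0.72 to 0.91). This interval overlaps those of other subunits, such as *Ndufb2* at 0.75 (0.66 to 0.84). The lowest accessory subunits were *Ndufs4*, whose loss in mice gives a Leigh-like encephalopathy, at 47.8 TPM and 42.3 TPM, and *Ndufa7*, at 218 TPM and 198 TPM. Their ratios by normalised counts were 0.39 (0.32 to 0.46) and 0.43 (0.36 to 0.50), both above the 0.06 of the median gene. The remaining accessory subunits ranged from 19.7 TPM for *Ndufa11* to 354 TPM for *Ndufa6* in Fabp4-/-. For *Ndufv3* and *Ndufb2* the scales were 0.39 and 0.42 apart, less than the 0.57 of the median member. RSEM divides by an effective length that moves with the transcript mix, and the deposited table does not list transcripts.

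**Figure D3:**
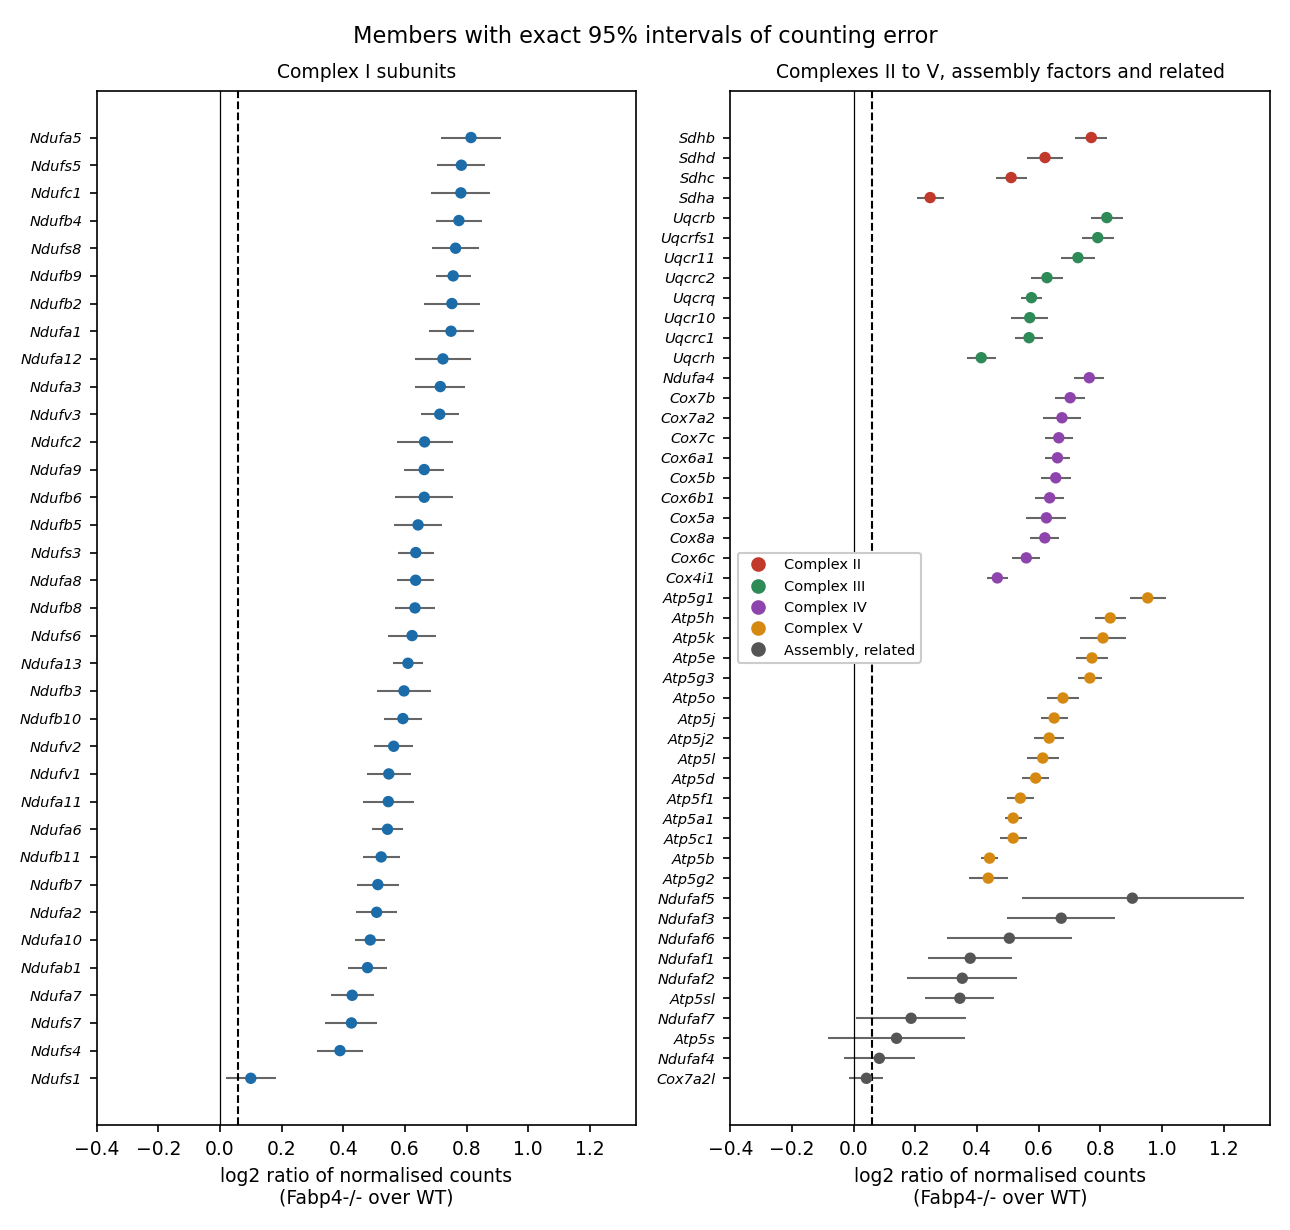
Log2 ratio of normalised counts, Fabp4-/- over WT, for the complex I subunits reported here (left) and for complexes II to V, assembly factors and related proteins (right), without the tissue isoforms of complex IV. Bars are exact 95% intervals of counting error and the dashed line is the median of all measured genes (0.06). Ndufs1, Cox7a2l, Ndufaf4 and Atp5s lie nearest to that line and Atp5g1 is the highest subunit of ATP synthase.

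Complex II, succinate dehydrogenase, is encoded entirely in the nucleus and also belongs to the citric acid cycle. Its 4 subunits did not keep a common ratio. *Sdha*, the flavoprotein that oxidises succinate, was at 81.7 TPM in WT against 68.4 TPM in Fabp4-/-. *Sdhb*, the iron-sulfur protein that binds it, was at 117 TPM and 135 TPM. The membrane anchors lay between them, with *Sdhc* at 86.3 TPM in both libraries and *Sdhd* at 90.0 TPM and 93.4 TPM. By normalised counts the ratios were 0.25 for *Sdha* (0.20 to 0.29), 0.51 for *Sdhc* (0.46 to 0.56), 0.62 for *Sdhd* (0.56 to 0.68) and 0.77 for *Sdhb* (0.72 to 0.82). The intervals of *Sdha* and *Sdhb* lie far apart, and those of *Sdhc* and *Sdhd* nearly touch. In WT the TPM of *Sdha* and *Sdhb* differed less than in Fabp4-/-, a comparison within each library that no scaling between libraries can alter. The longest coding transcripts had 2900 nt for *Sdha*, 3171 nt for *Sdhc*, 1231 nt for *Sdhd* and 1142 nt for *Sdhb*. The part of transcript length in the differences among these subunits was not tested.

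Many nuclear respiratory genes are known to carry promoter sites for NRF1 and for GABPA, an ETS factor, and some for YY1 or the estrogen-related receptors. Of the 92 members, 73 had an entry in the RefSeq promoter table (GRCm38.p6, from 250 bases before the start to 50 after it), and the first entry by position was read for each gene. The NRF1 motif was searched as GCGCANGCG on either strand and was in 30.1% of the 73, against 6.35% of all 27025 promoters. The ETS motif CCGGAAG was in 23.3% against 9.08%, and the YY1 motif AANATGGCG in 12.3% against 2.51%. The receptor motif TCAAGGTCA was in 2.74% against 0.407%, and that is only 2 of the 73 members, *Sdhd* and *Atp5g3*. At least 1 of these motifs was found in 40 of the 73 members and in 16.2% of all promoters. The NRF1 letters are nearly their own reverse complement, and ETS and YY1 letters can overlap, which occurred in 0 of the 73. Member promoters had a median of 19 CpG dinucleotides against 7 over all promoters and a median of 57.3% against 52.7% of C and G letters. A match of letters is a description and not a binding site. The *Sdhd* promoter is shown because it holds the NRF1, ETS and receptor motifs, which are in capitals (chr9:50603800-50604099, minus strand, 5′ to 3′).
Sdhd: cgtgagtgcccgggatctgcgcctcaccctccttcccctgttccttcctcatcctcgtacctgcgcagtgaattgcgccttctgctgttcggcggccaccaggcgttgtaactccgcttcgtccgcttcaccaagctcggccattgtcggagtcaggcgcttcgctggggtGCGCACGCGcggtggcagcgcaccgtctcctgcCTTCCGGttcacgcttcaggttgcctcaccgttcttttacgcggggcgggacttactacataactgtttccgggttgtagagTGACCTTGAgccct

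Complex III, the cytochrome bc1 complex, passes electrons from ubiquinol to cytochrome c. Its 8 members had a median log2 ratio of 0.06 by TPM (range −0.15 to 0.25) and 0.60 by normalised counts (range 0.41 to 0.82), and all 8 lay above the upper quartile of all measured genes on both scales. *Uqcrfs1*, the Rieske iron-sulfur protein, was at 97.5 TPM in WT, compared with 114 TPM in Fabp4-/-. The core proteins *Uqcrc1* and *Uqcrc2* were at 104 TPM and 75.8 TPM in WT, and at 104 TPM and 81.0 TPM in Fabp4-/-. *Uqcrq*, a small subunit next to cytochrome b, had the highest TPM of all members, at 857 TPM and 873 TPM.

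The small subunits of complex III spread further than its core. *Uqcrb*, which takes part in ubiquinone binding, was at 319 TPM in WT against 380 TPM in Fabp4-/-, and *Uqcr11* at 401 TPM and 447 TPM. *Uqcrh*, the acidic hinge protein near the cytochrome c site, was at 437 TPM and 393 TPM, and *Uqcr10* at 357 TPM and 358 TPM. By normalised counts *Uqcrb* was at 0.82 (0.77 to 0.87) and *Uqcrh* at 0.41 (0.37 to 0.46). Of the 8 members only *Uqcrh* and *Uqcrc1* had a lower TPM in Fabp4-/-, and *Uqcrc1* by less than its counting error. Processed pseudogenes of *Uqcrh* are in the table, and the 7207 (WT) and 7463 (Fabp4-/-) read pairs estimated for it were whole numbers.

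Complex IV, cytochrome c oxidase, reduces oxygen to water. Its catalytic subunits are mitochondrially encoded, and nuclear subunits surround them. The 11 nuclear subunits that are not tissue isoforms formed the tightest set among complexes I, III, IV and V, with an interquartile range of 0.06 by TPM and 0.05 by normalised counts around medians of 0.06 and 0.66. *Cox4i1*, which regulates the enzyme in response to ATP, was the lowest of them, at 563 TPM in WT, compared with 517 TPM in Fabp4-/- (0.47 by normalised counts, interval 0.43 to 0.50). In the table its gene model overlaps *Emc8* on the other strand and a predicted gene on its own. *Cox5a* was at 153 TPM and 159 TPM, and *Cox5b*, a zinc-binding subunit, at 266 TPM and 276 TPM. *Ndufa4*, first assigned to complex I and now placed in complex IV, was the highest, at 355 TPM and 393 TPM (0.76, interval 0.72 to 0.81). *Cox6c* was at 496 TPM and 493 TPM. The other common subunits, *Cox6a1*, *Cox6b1*, *Cox7a2*, *Cox7b*, *Cox7c* and *Cox8a*, had ratios from 0.03 to 0.11 by TPM.

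Tissue isoforms of complex IV were the exceptions among the members. Of 8 such genes, 4 passed the minimum, with log2 ratios by TPM from −2.41 to 0.49. *Cox6b2* (ENSMUSG00000051811.14; mm10 chromosome 7, 4751792 to 4753094), the testis form of the subunit that links the monomers of the enzyme, was at 7.35 TPM in WT against 0.98 TPM in Fabp4-/-. That is 108 read pairs against 15, and the ratio was −2.41 (TPM) and −2.45 (normalised counts), with an interval of −3.37 to −1.70. *Cox6b2* was the only member at least 2-fold lower among those measured, on either scale. *Cox6b1*, the form made in most tissues, was at 406 TPM and 414 TPM, so the share of *Cox6b2* in the pair went from 1.78% in WT to 0.236% in Fabp4-/-. The 5 testis markers examined, *Tnp1*, *Prm1*, *Prm2*, *Akap4* and *Odf1*, were at 0 TPM in both libraries. The promoters of the pair are set side by side because the genes encode the same subunit but differed in ratio. Any part of the promoters in that difference was not tested. Capitals mark the ETS motif, which was found in *Cox6b1* (chr7:30626065-30626364) and not in *Cox6b2* (chr7:4753045-4753344), both on the minus strand.
Cox6b1: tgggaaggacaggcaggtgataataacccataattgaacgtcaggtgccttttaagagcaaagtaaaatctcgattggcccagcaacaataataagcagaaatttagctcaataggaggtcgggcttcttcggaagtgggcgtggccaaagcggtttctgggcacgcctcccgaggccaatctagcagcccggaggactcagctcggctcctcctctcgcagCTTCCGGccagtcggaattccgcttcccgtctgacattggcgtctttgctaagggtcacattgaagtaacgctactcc
Cox6b2: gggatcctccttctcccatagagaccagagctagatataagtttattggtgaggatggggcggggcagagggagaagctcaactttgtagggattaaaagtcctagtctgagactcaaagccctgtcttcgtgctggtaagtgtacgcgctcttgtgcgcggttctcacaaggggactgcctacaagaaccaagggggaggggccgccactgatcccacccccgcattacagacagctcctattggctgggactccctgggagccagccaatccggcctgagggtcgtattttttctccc

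Muscle forms of complex IV subunits had few reads. *Cox7a1* (ENSMUSG00000074218.3), the heart and skeletal muscle form of its subunit, was at 6.61 TPM in WT, compared with 9.51 TPM in Fabp4-/-, from 63 and 105 read pairs. Its ratio was 0.49 by TPM and 1.09 by normalised counts (interval 0.64 to 1.57), which made it the only member at least 2-fold higher by normalised counts. The share of *Cox7a1* in the pair with *Cox7a2* was 4.34% in WT and 5.71% in Fabp4-/-. *Cox6a2*, the muscle partner of *Cox6a1*, was at 2.29 TPM and 1.22 TPM from 52 and 32 read pairs, and its interval of −1.02 to 0.33 includes 0. Of 9 striated muscle markers only the troponin gene *Tnni3* reached the minimum, at 2.97 TPM and 0.81 TPM, and the muscle creatine kinase gene *Ckm* was at 0 TPM and 0.02 TPM.

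*Cox4i2*, an isoform of lung and of hypoxic cells, was below the minimum, at 1.05 TPM in WT against 0.21 TPM in Fabp4-/- from 26 and 6 read pairs, with a ratio of −1.68 by normalised counts (interval −3.32 to −0.44). Of 6 smooth muscle and pericyte markers, 3 were measured, and *Rgs5* was at 11.1 TPM and 6.82 TPM while *Tagln* was at 20.3 TPM and 32.0 TPM. *Ndufa4l2*, the hypoxia-induced paralog of *Ndufa4*, was at 3.22 TPM and 3.99 TPM, from 115 and 164 read pairs. The adipose and muscle form *Cox8b* had 1 read pair in WT and 0 in Fabp4-/-. The testis forms *Cox7b2* and *Cox8c* had 0 read pairs in both, which allows up to 3 read pairs in each library. No fold is given for these last 3 genes. Minor isoforms together came to 20.7 TPM in WT, compared with 15.9 TPM in Fabp4-/-, against 3961 TPM and 4079 TPM for the common subunits.

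**Figure D4:**
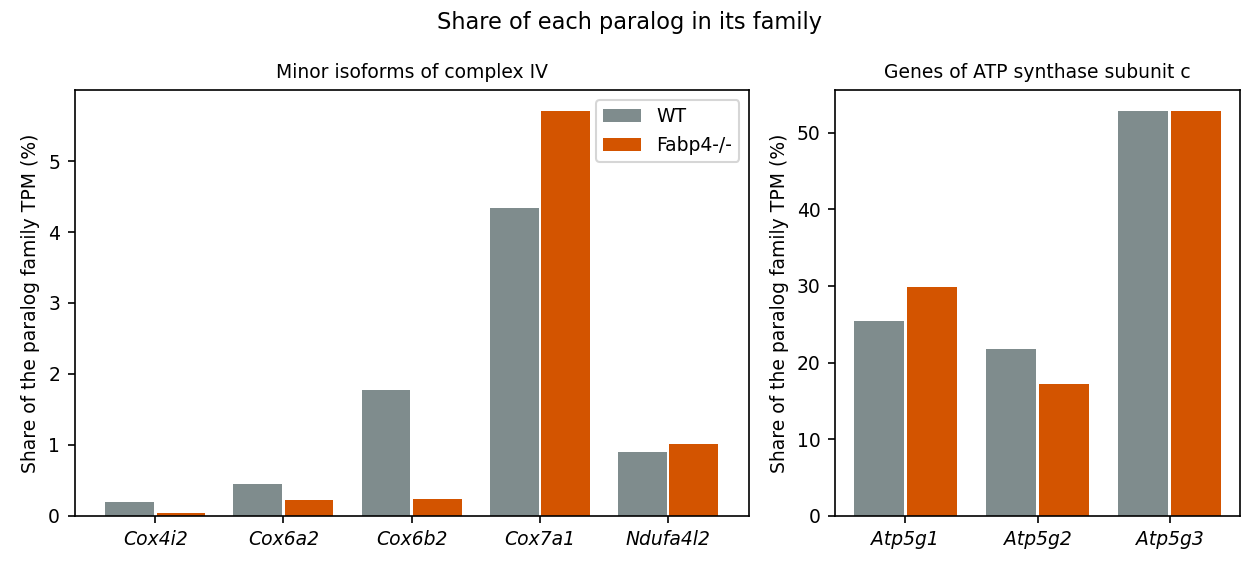
Share of each gene in the summed TPM of its paralog family (y axis, percent, from 0), for 5 minor isoforms of complex IV (left) and the 3 genes of ATP synthase subunit c (right), in the WT and Fabp4-/- libraries. There is 1 library per bar and therefore no error bar. The share of Cox6b2 was 1.78% in WT and 0.236% in Fabp4-/-, and Atp5g1 took 25.4% and 29.9%.

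ATP synthase consists of a rotary F1 head, a ring of c subunits in the membrane and a stalk that joins them. Its 15 members had the highest median log2 ratio of the complexes, 0.09 by TPM (range −0.13 to 0.44) and 0.63 by normalised counts (range 0.44 to 0.95), and all 15 lay above the upper quartile of all measured genes on both scales. By normalised counts complex IV was higher, at 0.66, so this order depends on the scale. Of the F1 subunits, *Atp5a1* (alpha) was at 211 TPM in WT against 216 TPM in Fabp4-/-, the catalytic *Atp5b* (beta) at 704 TPM and 757 TPM, and *Atp5c1* (gamma), the rotor shaft, at 181 TPM and 175 TPM. Their log2 ratios by normalised counts were 0.52, 0.44 and 0.52. The smallest F1 subunit, *Atp5e*, was at 467 TPM and 542 TPM, with a ratio of 0.77 that exceeds those of the other 4 F1 subunits beyond counting error.

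Subunit c is encoded by *Atp5g1*, *Atp5g2* and *Atp5g3*, whose proteins differ in the import sequence that is removed, while the mature subunit is the same. *Atp5g1* (ENSMUSG00000006057.15; mm10 chromosome 11, 96068852 to 96075670) was at 183 TPM in WT, compared with 248 TPM in Fabp4-/-. *Atp5g2* was at 157 TPM and 143 TPM, and *Atp5g3* at 382 TPM and 439 TPM. By normalised counts their ratios were 0.95 (0.90 to 1.01), 0.44 (0.37 to 0.50) and 0.77 (0.73 to 0.81), which do not overlap. *Atp5g1* had the highest ratio of the 74 subunits that are not tissue isoforms, and *Atp5g2* the lowest of ATP synthase, on both scales, with *Atp5b* within counting error of it by normalised counts. Estimated read pairs of *Atp5g1* and *Atp5g2* were not whole numbers, so RSEM had divided reads between them and other loci. In share of the 3 genes, *Atp5g1* went from 25.4% to 29.9%, *Atp5g2* from 21.7% to 17.2%, and *Atp5g3* was at 52.9% in both. Summed TPM of the 3 was 722 in WT and 830 in Fabp4-/-.

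The promoters of the genes for subunit c are given because a single mature protein is made from genes whose ratios differed. Whether the promoters had a part in this was not tested. Capitals mark the NRF1 motif in *Atp5g2* (chr15:102670998-102671297), found on both strands over nearly the same bases, and the NRF1 and receptor motifs in *Atp5g3* (chr2:73911277-73911576), and none of the motifs was found in *Atp5g1* (chr11:96075582-96075881). All are on the minus strand.
Atp5g1: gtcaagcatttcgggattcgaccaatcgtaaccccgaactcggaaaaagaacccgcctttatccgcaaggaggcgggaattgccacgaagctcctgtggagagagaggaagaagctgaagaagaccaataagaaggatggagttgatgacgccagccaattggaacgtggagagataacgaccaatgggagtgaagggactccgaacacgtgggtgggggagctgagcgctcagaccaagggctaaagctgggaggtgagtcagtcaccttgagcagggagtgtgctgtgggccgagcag
Atp5g2: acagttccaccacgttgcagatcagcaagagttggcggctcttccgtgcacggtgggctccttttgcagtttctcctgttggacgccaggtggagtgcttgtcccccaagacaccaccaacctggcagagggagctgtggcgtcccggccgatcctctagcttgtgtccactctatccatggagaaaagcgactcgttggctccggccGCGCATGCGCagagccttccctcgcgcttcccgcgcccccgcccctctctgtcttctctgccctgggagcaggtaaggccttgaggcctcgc
Atp5g3: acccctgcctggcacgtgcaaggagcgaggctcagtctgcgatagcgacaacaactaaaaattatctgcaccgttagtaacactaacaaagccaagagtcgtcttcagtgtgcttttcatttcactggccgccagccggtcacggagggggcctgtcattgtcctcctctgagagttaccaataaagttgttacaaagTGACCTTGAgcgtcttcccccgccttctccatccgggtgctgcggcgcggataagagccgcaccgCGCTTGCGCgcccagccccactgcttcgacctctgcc

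The 7 stalk and membrane subunits of ATP synthase, *Atp5f1*, *Atp5h*, *Atp5j*, *Atp5j2*, *Atp5k*, *Atp5l* and *Atp5o*, had ratios from −0.03 to 0.24 by TPM and from 0.54 to 0.83 by normalised counts. *Atp5h* was at 303 TPM in WT against 356 TPM in Fabp4-/-, *Atp5k*, which helps ATP synthase form dimers, at 296 TPM and 349 TPM, and *Atp5f1*, the peripheral stalk, at 144 TPM and 141 TPM. *Atp5o*, which joins the stalk to F1, was at 194 TPM and 207 TPM, and its gene model spans other measured genes. Among the 92 members, 16 overlap another measured gene in the table, and reads of overlapping genes may not be told apart, since the sources used here do not give the strand setting.

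Assembly factors and related proteins lay below the subunits. Their 10 members had a median log2 ratio of −0.25 by TPM (range −0.52 to 0.29) and 0.35 by normalised counts (range 0.04 to 0.90), and 3 of 10 lay above the upper quartile of all measured genes by TPM and 4 by normalised counts. *Cox7a2l*, studied as a factor that joins complex III to complex IV and known in C57BL/6 mice as a short form reported to be defective in this, was the lowest, at 145 TPM in WT, compared with 100 TPM in Fabp4-/-, with a ratio by normalised counts of 0.04 (−0.01 to 0.10). No subunit of complexes I to V outside the tissue isoforms had so low a ratio on either scale. *Ndufaf4*, an assembly factor of complex I, was at 15.2 TPM and 11.8 TPM, and *Ndufaf7*, a methyltransferase that serves complex I assembly, at 5.65 TPM and 4.34 TPM. *Atp5s*, known as factor B, was at 6.12 TPM and 4.55 TPM. The intervals, by normalised counts, of *Cox7a2l*, *Ndufaf4* and *Atp5s* include 0, and these and *Cox6a2* were the 4 measured members of which this is so.

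Other assembly factors varied. *Ndufaf5*, which hydroxylates NDUFS7, had the highest ratio, at 2.43 TPM and 3.07 TPM, with a wide interval by normalised counts of 0.55 to 1.27 from 110 and 160 read pairs. *Ndufaf3* was at 10.5 TPM and 11.1 TPM and *Ndufaf6* at 11.2 TPM and 10.4 TPM. *Ndufaf1* was at 16.8 TPM and 14.6 TPM, *Ndufaf2* at 22.9 TPM and 19.7 TPM, and *Atp5sl*, which by human work also serves complex I assembly, at 26.1 TPM and 21.2 TPM. Of 44 measured assembly factors with other names, 0 were 2-fold apart on either scale, 24 lay above the upper quartile of all genes by TPM, and their median was −0.12 by TPM and 0.43 by normalised counts. The lowest of these was *Coa5*, of complex IV, at 22.0 TPM and 12.4 TPM, and the highest *Higd1a* at 22.3 TPM and 28.6 TPM. Assembly factors had lower levels than subunits, a median of 13.2 TPM in WT for those of complex I against 119 TPM for its subunits, and the part of level in the lower ratios was not tested.

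The 13 subunits encoded in the mitochondrial genome, partners of the members in the same complexes, had median ratios of −0.00 (TPM) and 0.57 (normalised counts) and took 12.1% of TPM in WT and 12.7% in Fabp4-/-. The highest was *mt-Cytb*, the cytochrome b of complex III, at 8928 TPM and 12071 TPM, the only 1 of the 13 at least 2-fold higher by normalised counts, and above the 0.95 of *Atp5g1*, the highest of the 74 common nuclear subunits. The lowest was *mt-Nd6*, at 1116 TPM and 1036 TPM. The largest part of the summed TPM was that of *mt-Atp8*, at 36087 TPM and 34991 TPM. By reads *mt-Atp8* was not the largest: it had 67230 read pairs in WT, against 95044 for *mt-Atp6*, which was at 4183 TPM. The shares of TPM given here thus depend on the effective lengths by which RSEM divides. The libraries hold polyA RNA, and how evenly mitochondrial and nuclear mRNAs were captured was not tested. By TPM the interquartile range of these 13 was 0.32, against 0.17 for the 74. Of 9 electron carriers and subunits outside the name rule, 0 were 2-fold apart. *Cyc1*, the cytochrome c1 of complex III, was at 85.7 TPM and 93.4 TPM, and *Cycs*, cytochrome c, at 70.5 TPM and 83.2 TPM. *Usmg5*, a small ATP synthase subunit, was at 315 TPM and 393 TPM. *Etfdh*, which feeds electrons from fatty acid oxidation to ubiquinone, was the lowest of the 9 by ratio, at 49.0 TPM and 35.2 TPM (−0.47 by TPM). The 13 genes of coenzyme Q synthesis had median ratios of −0.19 (TPM) and 0.39 (normalised counts), among them *Coq4*, at 4.24 TPM and 6.34 TPM, the only gene of that list at least 2-fold higher by normalised counts.

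Genes known to regulate nuclear respiratory genes, listed with some that serve transcription of the mitochondrial genome, had a lower median ratio than the subunits. Of the 14 genes listed, 13 were measured, and *Tfam*, *Tfb1m*, *Tfb2m* and *Polrmt* are those that act on the mitochondrial genome. The 13 had median log2 ratios of −0.59 (TPM) and −0.10 (normalised counts), below the median of all measured genes on both scales. Their median level in WT was 13.5 TPM, and the part of level and transcript length in the lower ratios was not tested. *Nrf1* was at 8.76 TPM in WT against 5.64 TPM in Fabp4-/-, *Gabpa*, which overlaps *Atp5j* on the other strand, at 7.19 TPM and 4.05 TPM, and *Esrra* at 21.8 TPM and 15.0 TPM. *Pprc1*, a coactivator of the PGC-1 family, was at 28.5 TPM and 11.2 TPM, the only gene of this list at least 2-fold lower by TPM (−1.31, and −0.99 by normalised counts). *Ppargc1b* was at 1.40 TPM and 1.80 TPM, and *Ppargc1a*, below the minimum, at 0.69 TPM and 0.64 TPM. Levels of mRNA do not show the activity of these factors.

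Ribosomal proteins, at a median of 664 TPM in WT for the cytosolic and 33.9 TPM for the mitochondrial ones, served as comparison. The 77 mitochondrial ribosomal proteins had median ratios of −0.10 (TPM) and 0.44 (normalised counts), and the 81 measured cytosolic ones −0.30 and 0.27. Both lay below the 0.05 and 0.62 of the respiratory chain, and 46 of 77 and 5 of 81 were above the upper quartile of all measured genes by TPM, against 76 of 88 members. Summed TPM went from 6.51% to 5.31% of the library for cytosolic ribosomal proteins and from 1.63% to 1.71% for the members. With 1 library per genotype, none of these differences between groups could be tested.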

How the data were processed

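Liver tumor RNA was measured in 1 WT and 1 Fabp4-/- library. RSEM 1.2.31, STAR 2.5.2 and mm10 are named, without settings, in the submitters' processing notes. The authors deposited TPM values, which sum to 1000000 per library, and normalised counts, a signal on a read scale. Read pairs were estimated by dividing the deposited normalised counts by the most frequent value above 0 (0.882 in WT and 1.13 in Fabp4-/-); 86.0% and 86.5% of values above 0 were then whole to within 0.0001. The authors' fold changes and error rates were not used.

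A pseudocount of 0.5 and a minimum mean of 1 TPM over both libraries were applied. Scripts ran on pandas 2.3.3, numpy 2.4.6, matplotlib 3.10.9 and scipy 1.17.1 under Python 3.11.15, and ratios and intervals were tested on simulated data. Coordinates are those of the deposited table. Transcript lengths are from GENCODE M21, where all 92 members were found by gene identifier. Genes were named if they belong to complex II, the catalytic cores or an isoform family, were 2-fold apart or below the minimum, or were among the 3 highest or 3 lowest ratios by TPM of their group; a few more were chosen after their values were seen. Members and lists were chosen with earlier results of these data known. Alternatives were the normalised counts, upper quartile scaling, median centring, leaving the 20 most abundant genes out of the totals, a pseudocount of 0.1 or 1, a minimum of 5 TPM or none, a 1.5-fold threshold, subunits alone and, chosen after seeing the data, other backgrounds and members without tissue isoforms. Values of 1 complex I subunit enter the counts and medians but are not reported here.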

Additional observations from a re-analysis of the deposited data

How the results depend on the processing

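No paired analysis was possible because neither genotype has more than 1 library, and leaving out a library leaves no comparison. The median log2 ratio of all members, 0.05 by TPM, was 0.62 by normalised counts, 0.41 with median centring, 0.55 with upper quartile scaling and 0.20 without the 20 most abundant genes. In the same order, complex I was at 0.63, 0.41, 0.55 and 0.20, complex II at 0.57, 0.39, 0.53 and 0.18, complex III at 0.60, 0.42, 0.56 and 0.21, complex IV at 0.66, 0.42, 0.56 and 0.21, and complex V at 0.63, 0.46, 0.60 and 0.25. Assembly factors and related proteins, −0.25 by TPM, were at 0.35, 0.10, 0.24 and −0.11, so their sign turns in 3 of these scalings. Relative to all measured genes the members lay 0.50 higher by TPM, 0.56 on the scale of normalised counts, 0.33 with no minimum, and, chosen after seeing the data, 0.27 against genes of 50 TPM or more and 0.23 where members and other genes were both limited to at most 1000 nt and at least 50 TPM. Members at least 2-fold lower were 1 by TPM, 2 with no minimum, 0 with a minimum of 5 TPM and 2 at 1.5-fold, and members at least 2-fold higher were 0 by TPM and 1 by normalised counts. A minimum changes which genes enter; otherwise the cause was not tested. From TPM to normalised counts the log2 ratio shifted by a median of 0.54 over all measured genes (5th to 95th percentile 0.12 to 0.68) and 0.57 over the members (0.40 to 0.61). For the named members, the 4 other scalings moved 201 of 204 ratios by more than the median counting error (0.06), except *Cox6b2* in 2 of them and *Cox6a2* in 1, and other pseudocounts moved 4 of 102. A minimum cannot move the ratio of a single gene. Genes with few read pairs, such as *Cox4i2* and *Cox6a2*, are known only within wide intervals.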
